A study of Oryza sativa with 12 samples.

Results

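Among 29690 loci on a rice (Oryza sativa) leaf expression array, 70 were detected on every array of submerged leaves and on no array of control leaves, in both genotypes studied. A locus counted as detected where the scanner software marked its spot as well above background, and each locus was represented by its probe with the highest mean signal over all 12 arrays. The members were therefore chosen from the contrast of submerged with control leaves itself, and values of that contrast below, its calls included, describe the selection and support nothing. One locus named in the rule is not analysed here. By comparison, 18485 loci were detected on all 12 arrays, 3537 on none, and 85 on all 6 control arrays and no submerged array.

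Submerged FR13A, submerged Goda Heenati, FR13A control and Goda Heenati control leaves each had 3 arrays, numbered as replicates. The labels do not say whether replicates came from separate sowings, so p-values below measure only the spread between these samples. The seedlings were 14 d old, and the submerged groups spent 3 d fully under water in tanks 70 cm deep, while controls stood in a tank holding no water. Each sample pooled leaves of about 20 plants, so differences between single plants were not measured. At the start the shoot tips lay 52.7 ± 2.3 cm below the surface in FR13A and 45.9 ± 2.9 cm below it in Goda Heenati (the labels do not define the error), so that depth and genotype cannot be told apart under submergence.

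Flooding a rice shoot slows gas exchange, and leaves then run short of oxygen and light while ethylene builds up in the tissue. Textbook responses include a switch of carbohydrate metabolism towards fermentation, breakdown of stored carbohydrate and, depending on the cultivar, either elongation of the shoot or restraint of growth. FR13A is a landrace known for surviving complete submergence. Arrays measure such responses over a range that ends at the background of the slide, so a transcript scarce in air can come into view only once it accumulates under water. The array files give each gene only a locus number, in which the digits before the g name the chromosome, and the reference gene table used here named none of the 70 loci. No gene name, function or sequence is therefore given for them, and the leaf label could not be checked against named marker genes.

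Signals are given as log2 of the processed intensity after subtracting the 75th percentile of that array, so that 0 marks a bright spot and each unit lower is a factor of 2. The 12 arrays had 30610 to 34235 probes well above background, and the dimmest of these on each array lay between -7.87 and -6.61. All 4 groups were present on each of 3 slides, and replicate numbers follow the slides. Slide 1 had its own scan day and was the 1 slide with saturated probes, 1837 to 2406 per array. Because whole leaves were sampled, more cells making a transcript and more RNA per cell cannot be told apart.

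The 70 loci spanned a wide range of levels under water. Their mean signal ran from -6.73 to 3.09 in submerged FR13A, with a median of -4.05, and from -6.17 to 2.97 in submerged Goda Heenati, with a median of -4.10. In controls the medians were -8.77 in FR13A and -8.80 in Goda Heenati, below the lowest signal well above background on any array. Ranked among 22711 genes tested, the submerged level of the median member stood at percentile 27.4. Of the 70, 31 lay below the 25th percentile of tested genes and 8 above the 75th percentile. Most members thus gave faint signals even under water, and a few gave bright ones. Signals of different probes also depend on the probe, so these ranks are of signal and not of transcript abundance.

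**Figure D1:**
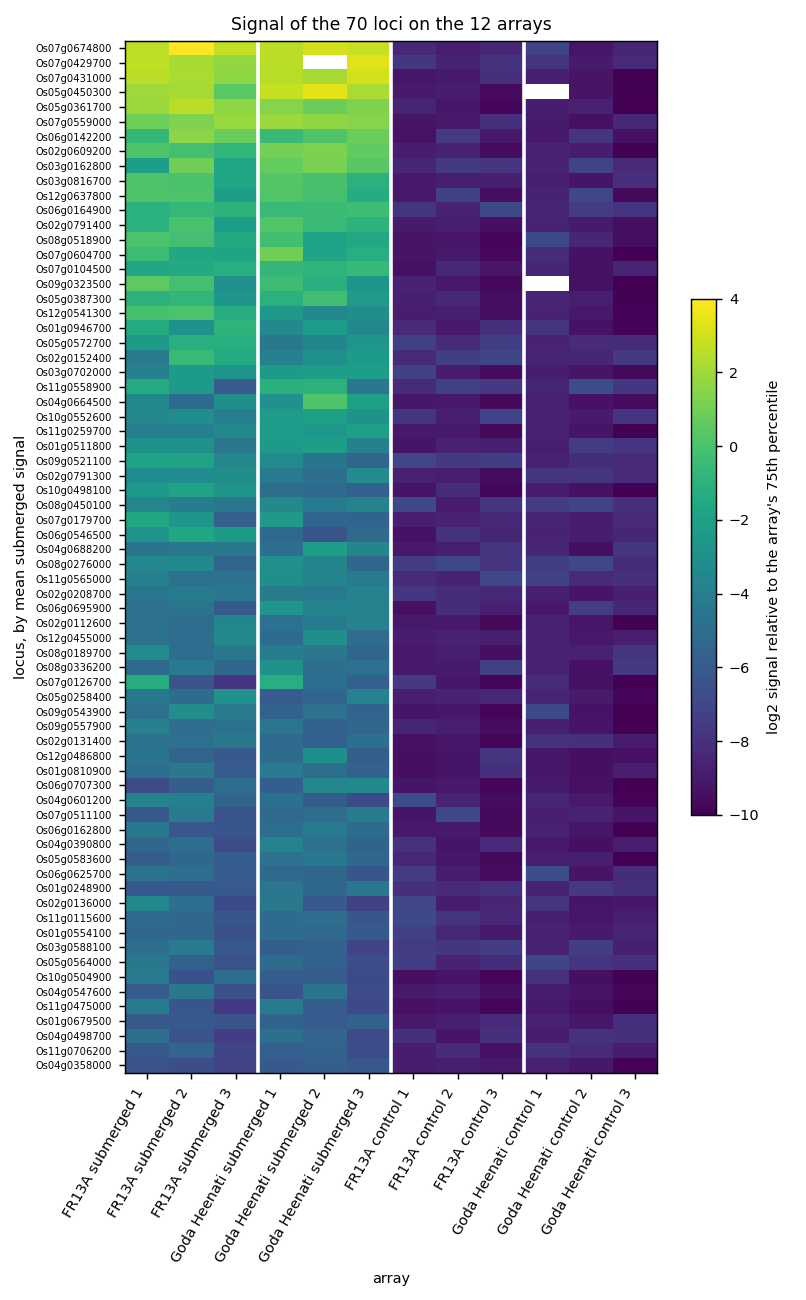
Log2 signal, centred on each array's 75th percentile, for the 70 loci (rows, by mean submerged signal) on the 12 arrays (columns, submerged groups left of controls); white cells are spots that the scanner software marked as outliers and that were left out. The rows grade from Os07g0674800, with 3.09 in submerged FR13A, to Os04g0358000, with -6.73 there, while the control columns stay dark throughout.

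Because no control array measured these loci well above background, a fold can only be bounded from below. The bound sets the mean of the submerged arrays against, on each control array, the higher of the probe's own signal and the lowest signal well above background. It is written as at least N-fold and allows for no sampling error. In FR13A the bounds ran from 1.35 to 1220, with a median of 8.52, and in Goda Heenati from 2.09 to 1260, with a median of 8.84. The 1260 leaves out Goda Heenati control replicate 1, where the spot was an outlier, which makes that bound larger. In both genotypes 8 loci were at least 100-fold higher, 27 at least 10-fold and 67 at least 2-fold under submergence. With limma and Benjamini-Hochberg adjustment, 69 members in FR13A and 70 in Goda Heenati were called higher, meaning 2-fold or more with an adjusted p below 0.05. Of all tested genes, 10.1% in FR13A and 9.18% in Goda Heenati were called higher. Since the rule used that contrast, these counts are a description only. The member not called in FR13A was Os07g0126700, whose replicates differed strongly and are described further on.

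**Figure D2:**
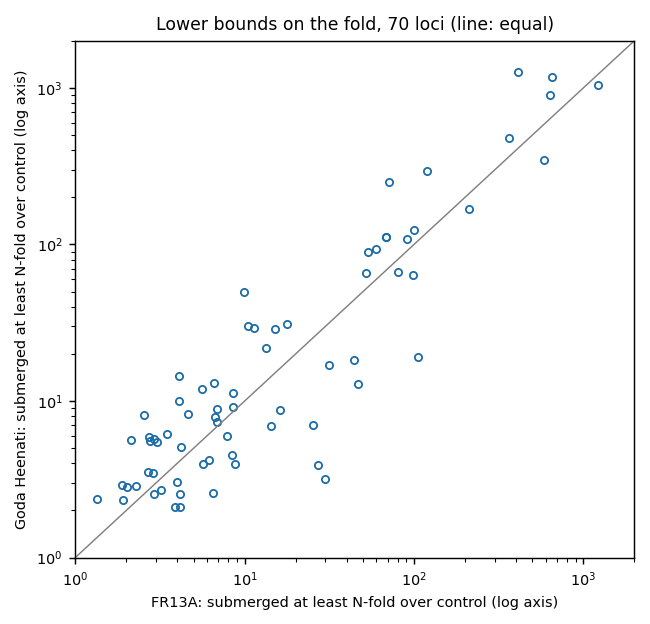
Lower bound on the fold of submerged over control leaves for each of the 70 loci, in FR13A (horizontal, log axis) and Goda Heenati (vertical, log axis), with a line where both are equal. The bounds run from 1.35 to 1220 in FR13A and from 2.09 to 1260 in Goda Heenati. The 1260, of Os05g0450300, leaves out an outlier spot of Goda Heenati control replicate 1.

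Os07g0674800, on chromosome 7, was the brightest member. Its signal was 2.61, 3.94 and 2.71 on the submerged FR13A arrays and 2.54, 3.04 and 2.83 on the submerged Goda Heenati arrays, against -8.45, -8.88 and -8.39 in FR13A controls and -7.20, -9.23 and -8.54 in Goda Heenati controls. Every submerged array was far above every control array. The bounds were at least 1220-fold in FR13A and at least 1050-fold in Goda Heenati.

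Os05g0450300, on chromosome 5, had the highest bound in Goda Heenati, though over the controls of replicates 2 and 3 only. Its signal was 1.97, 2.15 and 0.40 in submerged FR13A and 2.79, 3.44 and 2.20 in submerged Goda Heenati, against -8.98, -8.92 and -9.59 in FR13A controls and -9.25 and -9.92 in the Goda Heenati controls of replicates 2 and 3. The spot of Goda Heenati control replicate 1 was marked as an outlier and left out, and 1 array was saturated. Goda Heenati control replicate 1 therefore did not enter the bound. Its lowest signal well above background, -6.72, was higher than the -7.13 and -7.86 of replicates 2 and 3. With -6.72 entered the bound would be smaller, so its rank is not set on equal terms with the other members. The bounds were at least 409-fold in FR13A and at least 1260-fold in Goda Heenati, with every submerged Goda Heenati value above every submerged FR13A value. For Os05g0361700, on the same chromosome, every submerged FR13A value lay above every submerged Goda Heenati value. It had 1.90, 2.54 and 1.64 in submerged FR13A and 1.48, 0.85 and 1.27 in submerged Goda Heenati, against control means of -9.14 ± 0.60 and -9.21 ± 0.73 (SD, n = 3 each), and bounds of at least 586-fold and at least 347-fold. Neither genotype difference was called in the main fit described further on (limma adjusted p = 0.157 and 0.317). With the replicate entered as a block, Os05g0450300 was called and Os05g0361700 was not (limma adjusted p = 0.0156 and 0.139).

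A pair of loci on chromosome 7 had similar signals under submergence. Os07g0429700 had 2.65, 2.16 and 1.75 in submerged FR13A and 2.56 and 3.37 in submerged Goda Heenati replicates 1 and 3, the spot of replicate 2 being marked as an outlier. Os07g0431000 had 2.57, 2.22 and 1.62 in submerged FR13A and 2.51, 2.19 and 3.02 in submerged Goda Heenati. On the 5 submerged arrays that measured both, the first minus the second lay between -0.06 and 0.35. The bounds were at least 654-fold and 632-fold in FR13A and at least 1180-fold and 900-fold in Goda Heenati. Both probes carry an EST-based source label in place of an mRNA record. In controls, where neither was well above background, Os07g0429700 had -7.75, -8.61 and -7.96 in FR13A and -7.91, -8.97 and -8.34 in Goda Heenati. Os07g0431000 had -9.13, -8.97 and -8.06 in FR13A controls and -8.85, -9.26 and -10.04 in Goda Heenati controls. Signals this dim do not show whether the pair was alike in air. Whether the probes bind the same transcript was not tested, since no probe sequence was used here.

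Os07g0559000 was measured by a probe in a UTR. It had 0.93, 1.27 and 1.84 in submerged FR13A and 1.87, 1.65 and 1.48 in submerged Goda Heenati, against control means of -8.82 ± 0.61 and -8.94 ± 0.47 (SD, n = 3 each). The submerged values of the genotypes overlapped, and the bounds were at least 365-fold and at least 480-fold.

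The other members of the 12 brightest were all at least 68.2-fold higher in FR13A and at least 109-fold higher in Goda Heenati. Os06g0142200 averaged 0.56 ± 1.16 in submerged FR13A and 0.17 ± 0.68 in submerged Goda Heenati (SD, n = 3 each), with bounds of at least 212-fold and at least 169-fold. Os02g0609200 averaged -0.26 ± 0.47 in submerged FR13A and 0.96 ± 0.35 in submerged Goda Heenati, and its genotypes did not overlap. Os03g0162800 varied more in FR13A, with -2.23, 0.94 and -1.77, than in Goda Heenati, with 0.69, 1.18 and 0.36. Os06g0164900 was steady, at -0.89 ± 0.20 in submerged FR13A and -0.44 ± 0.11 in submerged Goda Heenati. Os03g0816700 and Os12g0637800 averaged -0.53 ± 1.04 and -0.66 ± 1.36 in submerged FR13A, and -0.29 ± 0.66 and -0.42 ± 0.78 in submerged Goda Heenati, with the lowest value on slide 3 in both genotypes.

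At the other end, 3 loci passed the rule narrowly. Os04g0358000 had -6.42, -6.65 and -7.13 in submerged FR13A and -6.11, -5.74 and -6.12 in submerged Goda Heenati, against control means of -8.91 ± 0.16 and -9.24 ± 0.59 (SD, n = 3 each), and bounds of at least 1.35-fold and 2.37-fold. Os04g0498700 and Os11g0706200 had bounds of at least 1.90-fold and 1.91-fold in FR13A, and 2.91-fold and 2.33-fold in Goda Heenati. At the chosen probes of such loci the groups were separated by the detection limit more than by a measured distance. A further probe of Os04g0498700 also met the rule. It averaged -5.77 in submerged FR13A and -4.95 in submerged Goda Heenati, against -9.25 in FR13A controls and -8.88 in Goda Heenati controls. Just outside the rule lay 87 loci that missed it by 1 array, 33 for want of 1 submerged array and 54 because 1 control array was well above background. The brightest of these, Os07g0558900, had 2.47, 3.26 and 3.42 in submerged FR13A and 2.85, 3.5 and 3.43 in submerged Goda Heenati. Its controls had -7.04, -6.70 and -7.32 in FR13A and -6.73, -6.60 and -7.57 in Goda Heenati, of which Goda Heenati replicate 2 was well above background. The next, Os10g0361000, had 3.21, 3.43 and 1.88 in submerged FR13A and -0.95, -0.34 and -3.44 in submerged Goda Heenati, and missed the rule through FR13A control replicate 3, at -6.22. Os12g0503000, with means of -0.28 in submerged FR13A and -0.60 in submerged Goda Heenati, missed it through FR13A control replicate 1, at -2.75.

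The control spots were dim, which bears on the word switched on. The scanner software also tests whether a spot is positive and significant against its background, a weaker mark than well above it. Of the 70 loci, 62 carried that mark on at least 1 of the 6 control arrays, 28 on at least 4, and 3 on all 6. Such counts were not made for other loci, and the mark also falls on loci never well above background. The shares of spots are therefore the comparison. Over the 420 control spots of the members, 46.9% were positive and significant, against 20.2% of control spots of the 3537 loci that were never well above background. The remaining 8 loci were positive and significant on no control array, and Os02g0609200, Os02g0791400 and Os11g0259700 were among them. The 3537 loci were not matched to the members by probe, and the mark does not settle whether a locus was silent in air. The 70 are therefore described only as loci that crossed the detection limit under submergence.

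The genotypes can be compared within the submerged leaves, a difference that the rule did not use. FR13A minus Goda Heenati was tested with limma over 22711 genes, and 7 of the 70 members (10%) were called, against 10.1% of all genes tested. Of the 7, 5 were higher in FR13A, where 4.93% of all genes were called, and 2 were higher in Goda Heenati, where 5.21% were called. The share of members that differed in this fit was thus near the background. Same-numbered arrays shared a slide, and once the replicate was entered as a block 12 members (17.1%) were called, 6 in each direction. Of all genes tested 12.9% were called in that fit, with 6.43% higher in FR13A and 6.47% higher in Goda Heenati. Over all 70, 26 had the higher mean in FR13A and 44 in Goda Heenati, and the median difference was -0.27 on the log2 scale, against 0.01 over all genes tested. The submerged values of the genotypes did not overlap for 8 members with FR13A above and 12 with Goda Heenati above, together 28.6% of the members. Over all genes tested the shares were 12.3% and 12.8%, together 25.1%.

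Os06g0546500, on chromosome 6, showed the largest difference among the members. It had -2.73, -1.67 and -2.38 in submerged FR13A, against -5.14, -6.43 and -5.14 in submerged Goda Heenati. All FR13A values lay above all Goda Heenati values, and FR13A was 9.91-fold higher, a log2 difference of 3.31 ± 0.44 (SE, limma adjusted p = 0.000467). On its controls the means were -8.63 ± 0.67 in FR13A and -8.69 ± 0.18 in Goda Heenati (SD, n = 3 each), none of them well above background.

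Os10g0498100, on chromosome 10, had -2.51, -1.96 and -2.75 in submerged FR13A, against -4.95, -5.24 and -5.63 in submerged Goda Heenati. The log2 difference was 2.86 ± 0.42 (SE, limma adjusted p = 0.000928), or 7.28-fold. Os12g0541300, on chromosome 12, had -0.09, 0.02 and -1.29 in submerged FR13A, against -2.40, -3.52 and -3.02 in submerged Goda Heenati, a log2 difference of 2.53 ± 0.44 (limma adjusted p = 0.00314). For both loci the genotypes did not overlap, and FR13A was higher on all 3 slides.

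Os05g0572700 and Os09g0521100 were also called as higher in FR13A, on narrower margins. Os05g0572700 had -2.36, -1.21 and -1.15 in submerged FR13A, against -4.38, -3.60 and -2.65 in submerged Goda Heenati, a log2 difference of 1.97 ± 0.47 (SE, limma adjusted p = 0.0199). Without any 1 of 4 submerged arrays the call was lost, with adjusted p up to 0.0864. Its other probe was well above background on no array. Os09g0521100 had -1.86, -1.96 and -3.52 in submerged FR13A, against -3.27, -4.58 and -5.45 in submerged Goda Heenati, and here the genotypes overlapped between slides while FR13A was higher on each slide. The log2 difference was 1.99 ± 0.56 (limma adjusted p = 0.0456), and the call was lost without any of 10 of the 12 arrays, with adjusted p up to 0.168. It was also lost with normexp background correction (2.03, limma adjusted p = 0.158), whose values for FR13A submerged replicate 2 stood apart.

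In the other direction, Os01g0248900, on chromosome 1, had -6.12, -6.11 and -6.03 in submerged FR13A, against -4.50, -5.30 and -4.44 in submerged Goda Heenati. It was 2.53-fold higher in Goda Heenati, a log2 difference of -1.34 ± 0.29 (SE, limma adjusted p = 0.0116). The sign turned to 0.77 with normexp background correction, whose values for FR13A submerged replicate 2 stood apart, as described under the processing alternatives. Os11g0259700, on chromosome 11, had -3.99, -3.95 and -3.42 in submerged FR13A, against -2.31, -2.56 and -2.10 in submerged Goda Heenati, a log2 difference of -1.46 ± 0.33 (limma adjusted p = 0.014). Its other probe met the detection rule too and gave a difference of -1.39. With normexp background correction the difference was -0.28 and the call was lost (limma adjusted p = 0.852). Leaving out single arrays took the adjusted p of Os01g0248900 to 0.0501 and that of Os11g0259700 to 0.0605.

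**Figure D3:**
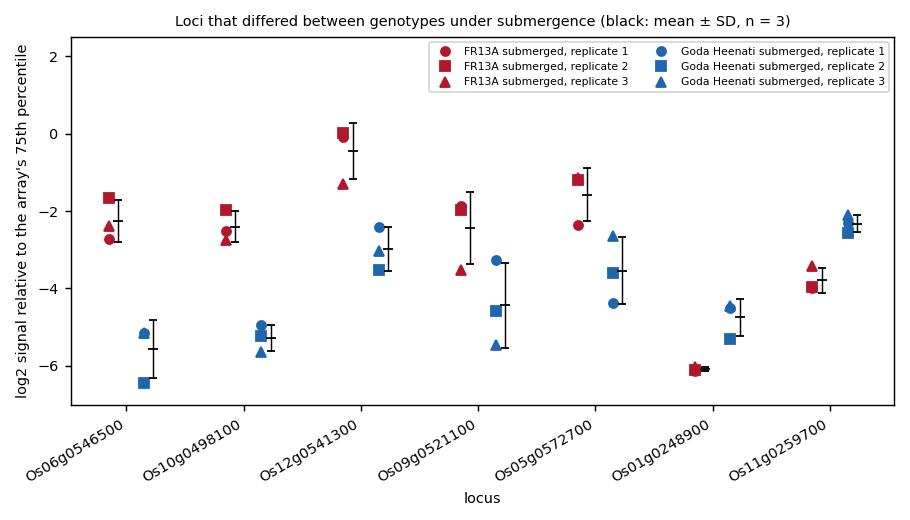
Log2 signal, centred on each array's 75th percentile (vertical axis), on each submerged array of FR13A (red, left) and Goda Heenati (blue, right) for the 7 members called between the genotypes; markers give the replicate, which is also the slide, and black bars the mean ± SD (n = 3). The genotypes overlap for Os09g0521100, and for the other 6 loci they do not.

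Blocking on the replicate brought 5 more members to a call. Os02g0609200 had 0.14, -0.16 and -0.77 in submerged FR13A, against 1.08, 1.24 and 0.57 in submerged Goda Heenati, a log2 difference of -1.22 with limma adjusted p = 0.00229 in the blocked fit and 0.0774 without the block. Os05g0450300, described above, had -1.30 (0.0156 with the block, 0.157 without). Os06g0695900 had -1.75 (0.0362 and 0.061) and Os03g0162800 had -1.76 (0.0363 and 0.187). Os04g0601200, which a UTR probe measured, was the 1 member of these 5 with the higher level in FR13A, by 1.49 (0.0117 and 0.319). For all 5, the direction was the same on each of the 3 slides.

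The difference between the responses, that is the fold in FR13A minus the fold in Goda Heenati, was called for none of the 70 by limma, with or without the block, where 0.0925% and 0.365% of all genes tested were called. At an unadjusted p under 0.05, 12 members (17.1%) differed, against 4.5% of all genes tested. The rule kept the control signal of every member short of well above background in both genotypes, so this contrast rests on dim control signal. The selection thus shapes the share of members, which supports no excess of differing responses. For the difference within submerged leaves alone, 22.9% of members and 20.5% of all genes tested had an unadjusted limma p under 0.05.

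Many of the members shifted together in both genotypes from slide to slide. Each submerged array's deviation from its group mean was compared between FR13A and Goda Heenati across the 70 loci, which share arrays and are not independent. The correlation was 0.72 on slide 1, 0.01 on slide 2 and 0.76 on slide 3, against 0.61, 0.40 and 0.74 over all genes tested. On slide 3 the median deviation of the members was -0.49 in FR13A and -0.44 in Goda Heenati, against -0.03 and -0.05 over all genes. On that slide 42 members lay below their group mean in both genotypes and 12 above it in both. On slide 1 the medians were 0.32 in FR13A and 0.26 in Goda Heenati, with 35 members above in both and 17 below in both. Over all genes tested, whose deviations also correlated, such counts were not made. The median SD of the members was 0.80 in submerged FR13A and 0.67 in submerged Goda Heenati, against 0.40 and 0.39 over all genes tested. In controls it was 0.51 in FR13A and 0.56 in Goda Heenati, against 0.41 and 0.39. The members were mostly dim, and the genes tested were not matched to them in signal level. The part of the slides and of the signal level in these SDs was not tested.

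**Figure D4:**
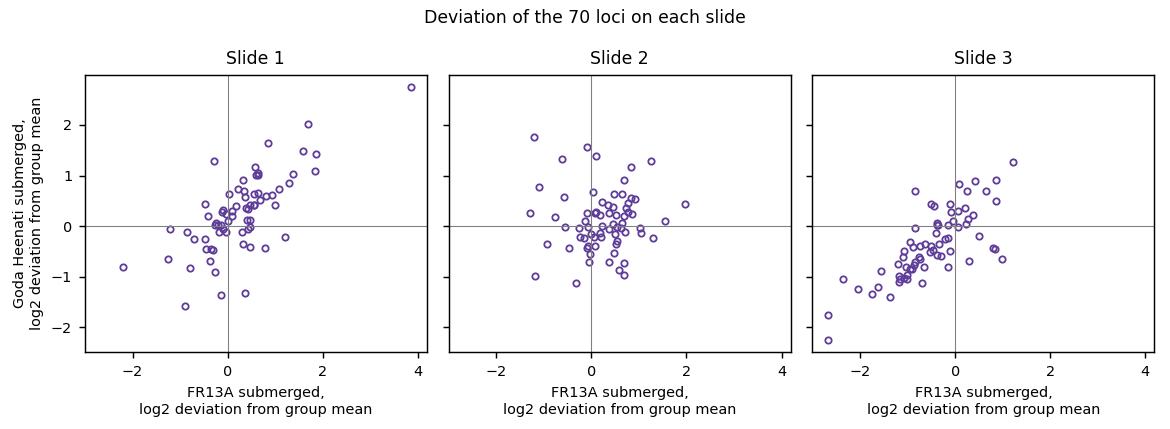
Deviation of each submerged array from its group mean (log2 signal) for the 70 loci, in FR13A (horizontal) and Goda Heenati (vertical), with a panel for each slide. Loci fall along the diagonal on slides 1 and 3 (r = 0.72 and 0.76) and not on slide 2 (r = 0.01), and on slide 3 most lie below 0 in both genotypes.

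A few members, singled out after their values were seen, show the size of these shifts. Os07g0126700 had -1.28, -6.33 and -7.82 on slides 1, 2 and 3 in submerged FR13A, and -1.17, -4.90 and -5.68 in submerged Goda Heenati. Its mean over both genotypes thus differed by 5.52 between slides, and its bound was at least 4.07-fold in FR13A, where the contrast with controls did not pass (limma adjusted p = 0.109). Os11g0558900 had -1.41, -2.42 and -5.93 in submerged FR13A and -1.11, -1.03 and -4.44 in submerged Goda Heenati. Os02g0152400 ran the other way on slide 1, with -4.25, -0.52 and -1.41 in submerged FR13A and -3.87, -2.96 and -2.36 in submerged Goda Heenati. In all, 11 members differed by at least 2 between slides in this way, and the median over members was 1.21. Neither value was worked out over all genes tested. Slide, scan day and the harvest of a replicate cannot be told apart here.

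The 70 loci lay on all 12 chromosomes. Chromosome 7 held 9 members (12.9%, against 7.9% of the loci on the array) and chromosome 2 held 8 (11.4%, against 11.3%). Chromosome 1 held 6 (8.6%, against 14.0%) and chromosome 3 held 4 (5.7%, against 12.2%). Probes designed on expressed sequence tags or predictions, rather than on mRNA records, stood for 27 members (38.6%), against 26.1% of the loci tested and 31.0% of all loci. These shares are given as a description and were not tested.

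Of the 70 members, 17 had a neighbouring locus that also rose in both genotypes. The nearest locus on the array on either side of each member, leaving out other members, gave 138 loci, of which 98 were among the genes tested. Of the 98, 19 (19.4%) were called higher under submergence in both genotypes by limma, where 6.28% of all genes tested were. In FR13A alone 21 (21.4%) were called higher and 8 (8.2%) lower, against 10.1% and 11.7% of all genes tested. In Goda Heenati 23 (23.5%) were called higher and 13 (13.3%) lower, against 9.18% and 11.5%. Neighbours that met the rule themselves had been left out, whereas all genes tested include the members, so these shares are a description. Whether neighbouring probes bind a shared transcript was not tested.

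All 19 neighbours were well above background on every submerged array, so that each had to be so on at least 1 control array, or it would have been a member. On all 6 control arrays 10 of them were well above background, and the other 9 were so on 1 to 5. Over the 10 measured on all controls, the log2 fold changes ran from 1.47 to 6.75 in FR13A and from 1.83 to 6.84 in Goda Heenati. Os07g0559000 was flanked on both sides. Os07g0558900, the brightest locus just outside the rule, was at least 1080-fold higher in FR13A, where no control array measured it (limma adjusted p = 2.31e-07). In Goda Heenati, where 1 of the 3 control arrays did, it was at least 1200-fold higher (limma adjusted p = 1.55e-07). On the other side, Os07g0559100 rose by 3.51 ± 0.86 in FR13A and by 3.78 ± 0.86 in Goda Heenati (limma adjusted p = 0.0136 and 0.00977). Os08g0189700 was also flanked on both sides, by Os08g0189600 (3.82 ± 0.49 in FR13A and 3.29 ± 0.49 in Goda Heenati) and Os08g0189900 (3.83 ± 0.55 and 4.45 ± 0.55). Both flanking loci were well above background on all 12 arrays, whereas the member between them was at -4.18 in submerged FR13A and -4.66 in submerged Goda Heenati. Next to Os04g0688200, Os04g0688300 rose by 6.75 ± 0.43 in FR13A and 6.69 ± 0.43 in Goda Heenati.

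**Figure D5:**
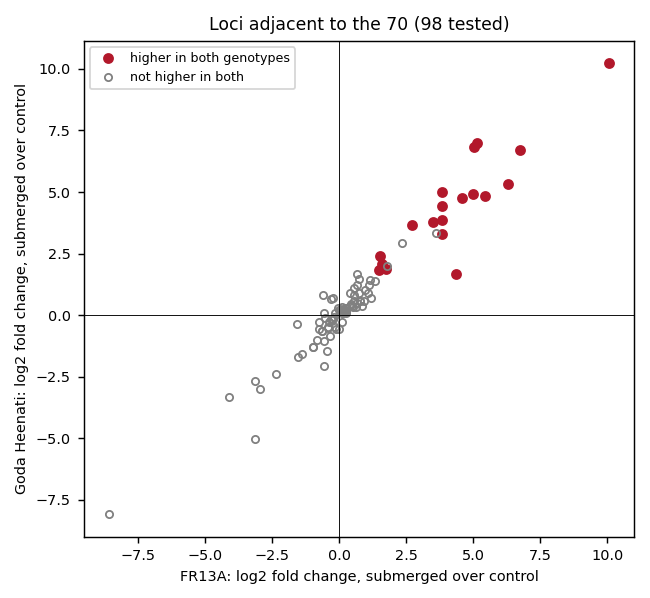
Log2 fold change of submerged over control leaves in FR13A (horizontal) and Goda Heenati (vertical) for the 98 tested loci next to a member on the array; red points are the 19 called higher in both genotypes. The values were fitted on measured signal, whether or not it was well above background, and the red points run from 1.47 to 10.07 in FR13A and from 1.68 to 10.23 in Goda Heenati. Os07g0558900 is the point at the upper right.

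Among the members themselves, Os02g0791300 and Os02g0791400 are neighbours on chromosome 2. Os02g0791300 had -3.17, -3.20 and -3.07 in submerged FR13A and -4.22, -4.82 and -3.27 in submerged Goda Heenati. Os02g0791400 had -1.04, -0.02 and -2.14 in submerged FR13A and 0.18, -0.59 and -0.93 in submerged Goda Heenati. The first was higher in FR13A by 0.96 and the second in Goda Heenati, with a difference of -0.62, and neither passed (limma adjusted p = 0.15 and 0.603).

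Of the 70 loci, 55 had a single probe and 15 had several. Those 15 had 22 further probes, of which 11 met the detection rule as well. For 5 of the 15, every probe met it. Where further probes failed, 8 were short of the 6 submerged arrays and 4 were well above background on a control array. A probe of Os06g0142200 is in both counts. Os05g0361700, with 3 probes, shows the second case. A further probe spanning coding sequence and 3′ UTR averaged 2.02 in submerged FR13A and 1.19 in submerged Goda Heenati, close to the 2.03 and 1.20 of its chosen probe, while the probe nearer the 5′ end averaged -1.35 and -2.0 there and was well above background on 1 control array. For Os09g0543900 and Os09g0557900, which averaged -4.03 and -4.54 in submerged FR13A, the other probe was well above background on no array.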

How the data were processed

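Leaf RNA of 12 samples was hybridised to 1-colour Agilent arrays, 1 per sample. The deposited scanner files hold intensity values (processed signal per spot) made with Agilent Feature Extraction 10.5.1.1, per the file headers. The authors' deposited table of 42475 probes holds log2 values, with a median of 10.02 in each column, and it followed the scanner values (r from 0.9975 to 0.9997 per array). No label or header states how it was normalized, and it served as an alternative.

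From each array's 45151 spots, control spots and outlier spots were left out, spots of a probe were averaged, and log2 of the processed intensity minus the array's 75th percentile was taken. Each locus kept its probe with the highest mean over 12 arrays. The 4 group means were fitted with limma 3.58.1 in R 4.3.3 over 22711 genes, with Benjamini-Hochberg adjustment, after a filter on probes well above background that all 70 members passed by construction. The planned normexp alternative needed a mean-signal column that the files used here lack, so the median signal and an offset of 50 were used. The fit was tested on simulated data in which arrays varied independently, so that test does not cover deviations shared by same-numbered arrays. The number of arrays limits precision.

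Same-numbered arrays shared a slide, and their deviations from group means correlated at 0.262 to 0.786 over 18 pairs, against -0.553 to 0.029 for unlike numbers, so the replicate numbers were taken to pair samples.

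The members and the named loci were chosen with earlier results of these data known. Named loci were the 12 brightest under submergence, those with the 6 largest and the 3 smallest bounds, those called between genotypes, and neighbours. Planned lists of pathway genes and leaf and root markers were not used, because the reference table (assembly ASM3414082v1, 39387 genes) named 0 of the array's loci.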

Additional observations from a re-analysis of the deposited data

How the results depend on the processing

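With normexp background correction 1877 genes were called in submerged against control FR13A (4948 without it), 1913 in Goda Heenati (4691) and 607 between the submerged genotypes (2304). The sign of Os01g0248900 turned to 0.77, with limma adjusted p = 0.681, and the calls of Os11g0259700 at -0.28 (0.852) and Os09g0521100 at 2.03 (0.158) were lost. The log2 SD of the normexp values was 1.15 on FR13A submerged replicate 2, against 2.65 to 3.18 on the other arrays. How much of these changes came from that array was not tested. With the replicate block, 12 members in place of 7 were called between the genotypes, and this count was added after seeing the data. Asking for positive and significant spots in place of spots well above background left 22 loci, 8 of them among the 70, and allowing 1 array to miss on each side gave 181.

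Quantile normalization, the authors' table, no filter and leaving out saturated spots kept the counts of calls within 1.5 times. Among the 7 members called, Os09g0521100 also lost its call without the filter (adjusted p = 0.061). Leaving out 1 array at a time gave 3388 to 5674 genes called in FR13A, 3594 to 4847 in Goda Heenati and 1839 to 2303 between the submerged genotypes. Under it, 5 to 8 members were called, 71 to 87 loci met the rule, and the median bound ran from 2.9 to 3.26 in FR13A and from 2.83 to 3.4 in Goda Heenati (log2). Os06g0546500, Os10g0498100 and Os12g0541300 kept their calls without any single array. Control signals of the 70 loci were not well above background, so they bound the levels in air from above and do not measure them.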

Other observations

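Os06g0142200, on chromosome 6, had 4 probes that did not all move the same way, and it was singled out after its values were seen. The 3 probes over coding sequence and 3′ UTR met the detection rule, with means from 0.16 to 0.60 in submerged FR13A and from -0.25 to 0.17 in submerged Goda Heenati. The probe over 5′ UTR and coding sequence averaged -6.47 in submerged FR13A and -6.8 in submerged Goda Heenati, against -5.18 in FR13A controls and -5.16 in Goda Heenati controls. It was well above background on 3 of the 6 submerged arrays and on all 6 control arrays. The other 3 probes were well above background on no control array, although the chosen probe was positive and significant on 4 of the 6. Whether the probes measure different transcripts was not tested.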
